A study of Homo sapiens with 18 samples.

Results

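Colony-stimulating factors are the growth factors that keep monocytes, macrophages and granulocytes alive and drive their formation from progenitors. The genes examined here were the 3 ligands CSF1, CSF2 and CSF3, the receptor chains CSF1R, CSF2RA, CSF2RB and CSF3R, and the related receptor tyrosine kinases FLT3 and KIT. They were taken by name from the GENCODE 29 symbols of the deposited gene identifiers, which gave 9 of the 57500 genes in the count tables.

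RNA was sequenced from THP-1, a human monocytic leukaemia line, in 18 libraries that form 6 groups of 3. The cells carried lentiviral hairpins against no target (shNT), against the nuclear receptor NR4A2 (shNR4A2) or against NR4A3 (shNR4A3). Each line was either left untreated (control) or given lipopolysaccharide (LPS), a bacterial ligand of toll-like receptor signalling, at 2.5 μg/ml for 2 h. Every group, controls included, is a transduced line kept in medium with serum, and there was 1 line per hairpin, so that an effect of the knockdown and a property of the line cannot be told apart. The study describes the libraries of a group as independent experiments, so p-values measure the spread between experiments on the same line and not between lines made anew. Total counts per library ran from 16171161 to 23929138.

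CSF1 binds CSF1R, a receptor tyrosine kinase of monocytes and macrophages. CSF2 (GM-CSF) binds CSF2RA, which then pairs with CSF2RB, the common β chain shared with the receptors for IL-3 and IL-5, and CSF3 (G-CSF) binds CSF3R. FLT3 and KIT are structurally related to CSF1R and mark progenitors and leukaemic blasts, with FLT3LG and KITLG as their ligands. Stimulated macrophages and stromal cells make CSF1, CSF2 and CSF3 through NF-κB and AP-1, while monocytes express the receptors under PU.1 (SPI1), C/EBP and RUNX factors.

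The hairpin targets were lower in their own lines. NR4A2 was at 4.16, 2.83 and 4.08 TPM (the count per base of the deposited exon length, scaled to the same sum in each library) in shNT control cells and at 1.82, 1.63 and 2.41 TPM in shNR4A2 control cells, and the log2 fold change was -0.91 ± 0.23 (SE, n = 3 and 3) in edgeR, with an adjusted p of 0.0359, which was lost without shNT control replicate 1 or 3 or shNR4A2 control replicate 1 or 2 (0.0728 to 0.124). With LPS NR4A2 was at 62.2, 74.7 and 51.3 TPM in shNT and at 20.5, 28.3 and 14.8 TPM in shNR4A2 (-1.52 ± 0.19, edgeR adjusted p = 0.00265). NR4A3 was low without LPS, with counts of 20, 21 and 17 in shNT and 5, 3 and 1 in shNR4A3 control libraries. The log2 fold change was -2.47 ± 0.49 in edgeR. NR4A3 passed the filter on low counts there through its shNT libraries alone, so no p is given for it. NR4A3 with LPS was at 30.9, 32.3 and 31.9 TPM in shNT and at 17.0, 18.2 and 16.7 TPM in shNR4A3 (-0.82 ± 0.08, edgeR adjusted p = 0.000556). None of these 4 pairs of groups overlapped. Groups of 3 libraries each are separate by chance alone in 10% of cases, which holds for every later statement that groups do not overlap. The labelled cell type was checked against its markers: all 10 monocyte genes examined (CD14, LYZ, CD33, ITGAM, FCER1G, CD68, CTSS, CD36, FCGR1A and LILRB4) had a mean of at least 1 TPM, and none of the T cell, NK cell, stromal or erythroid markers did. Of the 4 B cell genes, 3 did, with PAX5, a B-lineage transcription factor, the most abundant at a mean of 3.50 TPM. PAX5 was lower in shNR4A3 than in shNT cells, by -1.87 ± 0.24 without LPS and -1.74 ± 0.25 with LPS (edgeR adjusted p = 0.000357 and 0.00411), and gave -0.54 ± 0.19 and -0.63 ± 0.27 in shNR4A2 (0.132 and 0.206).

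Promoter sequences from RefSeq were at hand for 6 of the 9 members (CSF2, CSF1R, CSF2RA, CSF3R, FLT3 and KIT), with 8 transcription starts. The stretches shown are those of CSF2, the ligand that was almost silent in these cells, of both starts of CSF1R, the member called in all 4 comparisons of a knockdown line with shNT, and of KIT, which differed in the opposite direction. Each runs 5′ to 3′ on the strand of the gene in GRCh38.p14 and stops before the first GENCODE 29 transcript start that lies in its window. The proximal CSF1R window lies inside the span of the gene, downstream of the distal start. Capitals mark letters that match one of the motifs described after the sequences. CSF2 lies at chr5:132073539-132073788 on the plus strand, the distal CSF1R start at chr5:150113373-150113615 and the proximal one at chr5:150086591-150086804, both on the minus strand, and KIT at chr4:54657707-54657917 on the plus strand.
CSF2: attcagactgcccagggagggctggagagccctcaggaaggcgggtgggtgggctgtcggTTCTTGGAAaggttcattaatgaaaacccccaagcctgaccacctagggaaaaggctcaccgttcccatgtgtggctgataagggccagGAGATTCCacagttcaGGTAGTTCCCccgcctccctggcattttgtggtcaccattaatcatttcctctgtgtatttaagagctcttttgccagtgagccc
CSF1R distal: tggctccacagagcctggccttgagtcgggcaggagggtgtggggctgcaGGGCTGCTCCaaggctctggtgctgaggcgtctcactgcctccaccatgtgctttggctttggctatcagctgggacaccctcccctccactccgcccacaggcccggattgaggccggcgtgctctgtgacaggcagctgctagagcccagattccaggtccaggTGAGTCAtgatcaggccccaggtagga
CSF1R proximal: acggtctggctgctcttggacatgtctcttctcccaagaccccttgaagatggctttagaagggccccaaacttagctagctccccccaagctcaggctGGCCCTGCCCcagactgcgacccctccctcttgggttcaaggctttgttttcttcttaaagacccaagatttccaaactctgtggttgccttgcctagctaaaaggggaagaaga
KIT: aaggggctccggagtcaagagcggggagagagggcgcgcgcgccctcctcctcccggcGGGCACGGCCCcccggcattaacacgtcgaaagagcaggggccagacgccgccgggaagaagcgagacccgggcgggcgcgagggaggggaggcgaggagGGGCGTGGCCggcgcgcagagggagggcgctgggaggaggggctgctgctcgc

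Both strands of the 250 bases before each start were searched for 6 motifs, and the same search was made in 35116 promoters. The loose NF-κB site (GGG and CC with any 5 bases between them) was found before 6 of the 8 member starts and in 54.4% of all promoters. TGANTCA, the AP-1 site, was found only before the distal CSF1R start (-34 to -28 from the RefSeq start) and in 6.57% of all promoters. CSF2 held GAGATTCC, the core of its CK-1 element, at -101 to -94 (0.735% of all promoters), a loose NF-κB match on the minus strand at -85 to -76, and TTCNNNGAA, the STAT site, at -190 to -182 (6.57%). The letters GAGGAAGT (PU.1, 2.17% of all promoters) and AAAGGTCA (the NR4A monomer site, 1.05%) were in none of the 8 member windows. KIT had 3 loose NF-κB matches, a pair of which overlap on opposite strands, and the proximal CSF1R window held a further match at -36 to -27, past the stretch printed. Matches of different motifs did not overlap in these windows.

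Without LPS each of the 6 receptor genes was more abundant in mean TPM than CSF1, CSF2 and CSF3. In shNT control cells the order of mean TPM was CSF1R (85.0), CSF3R (58.0), FLT3 (34.9), CSF2RA (30.4), CSF2RB (28.3), KIT (13.2) and CSF1 (3.73), and no count was seen for CSF2 or CSF3. Within that order the libraries of FLT3 overlapped those of CSF2RA, and those of CSF2RA overlapped those of CSF2RB, while the other neighbours down to CSF1 were separate. CSF1R led in all 6 groups, though its libraries overlapped those of CSF3R in shNT cells with LPS. With LPS, CSF1 passed KIT in mean TPM in each line, and the libraries of these genes overlapped in shNT and shNR4A3 cells. These are bulk levels, in which fewer cells that express a gene and less RNA per cell cannot be told apart.

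**Figure D1:**
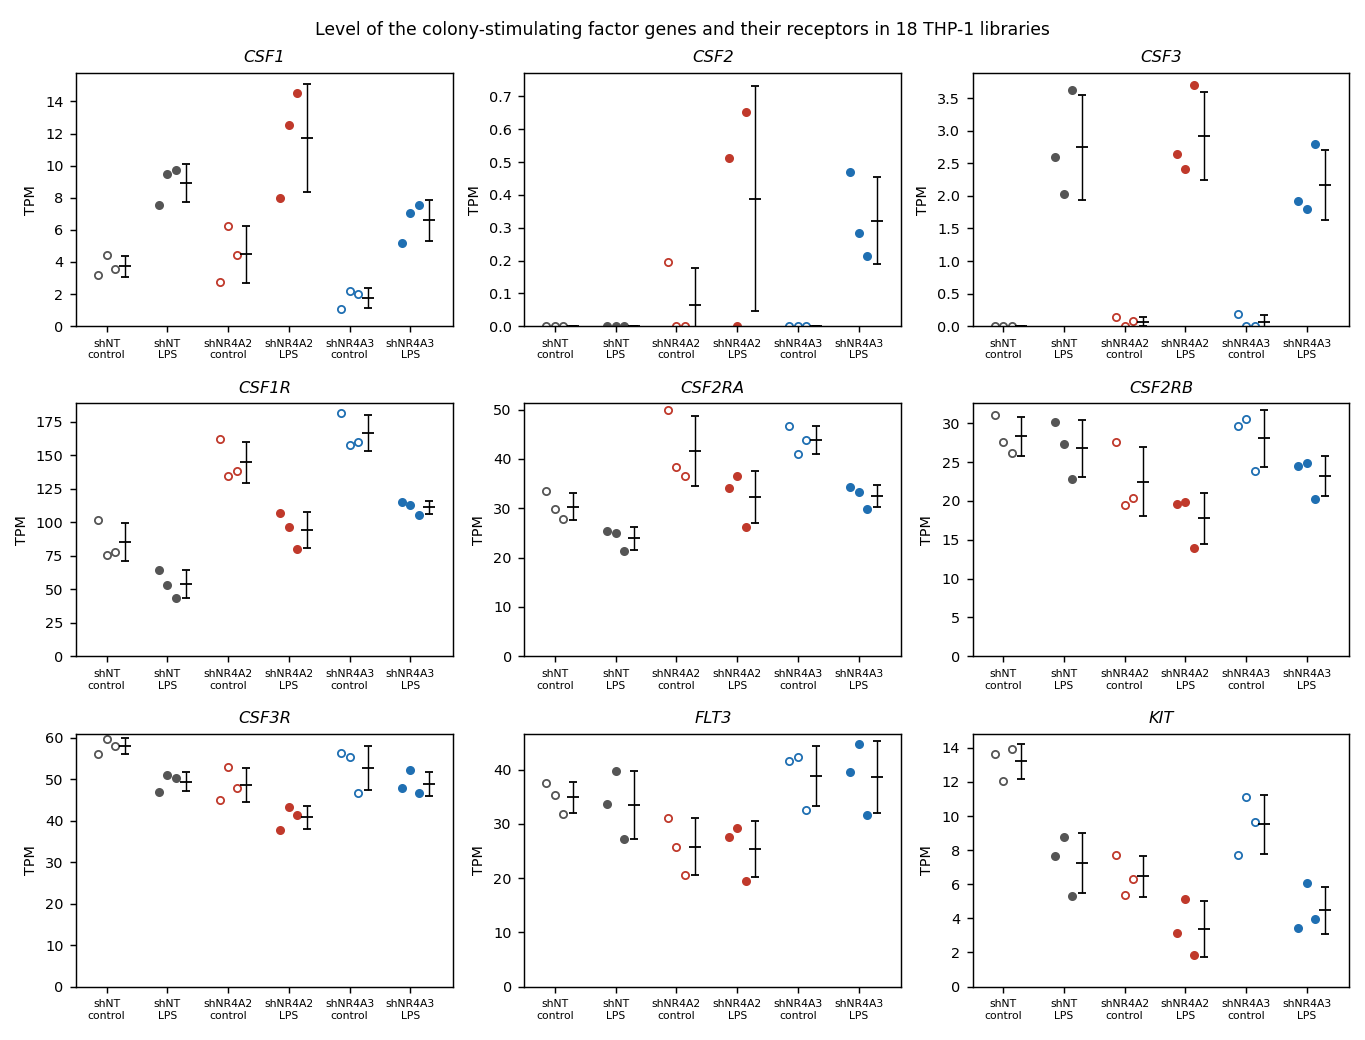
Level in TPM (vertical axis, from 0, with its own scale in each panel) of the 9 genes in the 6 groups; open circles are control libraries, filled circles LPS libraries, and the bar beside them is the mean ± SD of 3. The shNR4A2 and shNR4A3 libraries lie above the shNT libraries of the same treatment for CSF1R and CSF2RA, the shNR4A2 libraries lie below them for KIT, and CSF1 and CSF3 are higher with LPS in each line.

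LPS raised 2 ligands and lowered a pair of receptor kinases. Of the 8 members tested in shNT cells, CSF1 rose and CSF1R and KIT fell, beside 24.9% of all genes called in edgeR at an adjusted p under 0.05. CSF1, CSF1R and KIT were also called in shNR4A3 cells (28.1% of all genes), and CSF1 was in shNR4A2 cells (19.3%). CSF3 rose in each line too. It was tested only because its LPS libraries passed the filter on low counts, so it is not counted beside these shares. TPM is a share of each library, and the median of the genes tested was lower with LPS on that scale, by a log2 ratio of -0.23 in shNT, -0.28 in shNR4A2 and -0.24 in shNR4A3, against -0.01, -0.02 and -0.01 in edgeR after TMM scaling. Fold changes with LPS are therefore those of edgeR, and a drop in TPM of this size alone was not counted as a change.

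CSF1 (ENSG00000184371, chr1:109910242-109930992, plus strand), the macrophage growth factor, was at 3.18, 4.42 and 3.58 TPM in shNT control cells and at 7.56, 9.48 and 9.71 TPM with LPS. In shNR4A2 cells it was at 2.75, 6.26 and 4.40 TPM without LPS and at 7.98, 12.5 and 14.5 TPM with it. In shNR4A3 cells it was at 1.07, 2.21 and 1.98 TPM and then at 5.15, 7.03 and 7.57 TPM. Every LPS library stood above every control library of its line, and the shNR4A3 control libraries were the lowest of all. The log2 fold change with LPS in edgeR was 1.48 ± 0.17 in shNT (SE, adjusted p = 1.6e-05), 1.66 ± 0.28 in shNR4A2 (adjusted p = 0.00104) and 2.14 ± 0.24 in shNR4A3 (adjusted p = 7.1e-05). In control cells CSF1 was lower in shNR4A3 than in shNT by a log2 value of -1.05 ± 0.25 (edgeR adjusted p = 0.0230) and higher in shNR4A2 than in shNR4A3 by 1.31 ± 0.32 (edgeR adjusted p = 0.0436). The first of these calls was lost without shNT control replicate 2 (edgeR adjusted p = 0.109), without shNR4A3 control replicate 1 (0.0703) and with all 18 libraries in 1 fit (0.0541), and the second was lost without shNR4A2 control replicate 2 or 3 or shNR4A3 control replicate 1 or 3 (0.0695 to 0.158). With LPS the lines gave 0.44 ± 0.20 for shNR4A2 and -0.38 ± 0.16 for shNR4A3 against shNT, with edgeR adjusted p values of 0.221 and 0.189. With the replicate number as a block these became 0.43 (edgeR adjusted p = 0.00217) and -0.39 (0.0186), and shNR4A2 stood above shNR4A3 by 0.82 (0.000115).

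CSF3 (ENSG00000108342, chr17:40015361-40017813, plus strand), the granulocyte growth factor, had counts of 0, 0 and 0 in shNT control libraries and of 33, 25 and 50 with LPS, which is 2.59, 2.03 and 3.62 TPM. The shNR4A2 libraries had 2, 0 and 1 counts without LPS and 29, 29 and 48 with it. The shNR4A3 libraries had 2, 0 and 0 counts and then 23, 18 and 37. CSF3 thus came on with LPS in every line, from a background of at most 2 counts per library. Summed over the 3 libraries and set against a floor of 3 counts, the level in shNT was at least 33.5-fold higher with LPS. The ratio was 40.3 (95% exact interval 13.4 to 198) in shNR4A2 and 36.2 (9.69 to 304) in shNR4A3, intervals that cover counting error only. With 1 library left out, the log2 fold change in edgeR ran from 4.92 to 6.12 in shNR4A2 and from 4.58 to 7.73 in shNR4A3. CSF3 passed the filter on low counts through its LPS libraries alone and was not tested between lines without LPS, so its calls with LPS in edgeR had to follow and no p is given for them. Between lines with LPS it was not called: the log2 fold change against shNT was 0.14 ± 0.31 in shNR4A2 and -0.28 ± 0.32 in shNR4A3 (edgeR adjusted p = 0.839 and 0.650).

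CSF2 (ENSG00000164400, chr5:132073790-132076170, plus strand), which drives granulocyte and macrophage growth, was nearly absent. No count was found in the 6 shNT libraries, where a count of 0 allows up to 0.613 to 0.794 TPM per library depending on its depth. The shNR4A2 libraries held 1, 0 and 0 counts without LPS and 2, 0 and 3 with it, and the shNR4A3 libraries held 0, 0 and 0 and then 2, 1 and 1. A difference between groups was not detectable at this depth, and CSF2 was removed by the filter on low counts in every comparison.

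Among the other ligands and subunits of these receptors, 3 of 7 genes were tested in shNT cells with LPS. IL3RA, the IL-3 receptor chain that pairs with CSF2RB, had a mean of 70.9 TPM in shNT control cells, above both CSF2RA and CSF2RB, and rose slightly with LPS there (log2 fold change 0.32 ± 0.10, edgeR adjusted p = 0.0291), a call lost without LPS replicate 1 or any of the control libraries (0.0544 to 0.117), with all 18 libraries in 1 fit (0.0901) and without the filter on low counts (0.0527). FLT3LG had means of 0.976 TPM in shNT and 1.72 TPM in shNR4A2 control cells and was not called. IL34, the second ligand of CSF1R, stayed at or below 0.499 TPM in every library. KITLG, the ligand of KIT, was at 12.4, 7.31 and 13.1 TPM in shNT control cells and at 25.3, 16.1 and 27.2 TPM in shNR4A2 control cells, where the groups did not overlap. It was higher in shNR4A2 than in shNT cells without LPS (1.07 ± 0.21, edgeR adjusted p = 0.0119) and with LPS (1.21 ± 0.15, adjusted p = 0.00220), and higher in shNR4A3 than in shNT cells with LPS (0.94 ± 0.19, adjusted p = 0.0182). The last call was lost without shNT or shNR4A3 LPS replicate 3, shNT LPS replicate 2 or shNR4A3 LPS replicate 1 (edgeR adjusted p = 0.0520 to 0.0809). With LPS KITLG rose in shNR4A3 cells (0.95 ± 0.19, edgeR adjusted p = 0.00320).

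Between lines CSF1R was called higher in both knockdown lines without and with LPS. A call of another member in 1 knockdown line alone is no test of a difference between these lines. In control cells CSF1R rose and KIT fell in shNR4A2 against shNT, 2 of 7 members tested beside 6.45% of all genes called, and CSF1R and CSF2RA rose and CSF1 fell in shNR4A3, 3 of 7 beside 7.23%. With LPS CSF1R was higher in shNR4A2 cells, 1 of 8 members beside 6.96% of all genes, and CSF1R and CSF2RA were higher in shNR4A3 cells, 2 of 8 beside 6.45%. The lines were compared with the same shNT libraries, so their values are set side by side and not counted as separate evidence. Replicate numbers paired the libraries in all of these comparisons, though for shNR4A3 against shNT in control cells only over the 5000 most expressed genes (lowest r 0.246) and not over all genes tested (0.0767). With the number as a block, 23.6% of all genes were called in shNR4A2 against shNT control cells, where 2 members rose (CSF1R and CSF2RA) and 4 fell (CSF2RB, CSF3R, FLT3 and KIT). In shNR4A3 control cells the block gave 14.8% of all genes, with CSF1R and CSF2RA higher and CSF1 and KIT lower. With LPS and the block, 28.1% of all genes and 7 members were called for shNR4A2, and 21.8% of all genes and 5 members for shNR4A3.

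**Figure D2:**
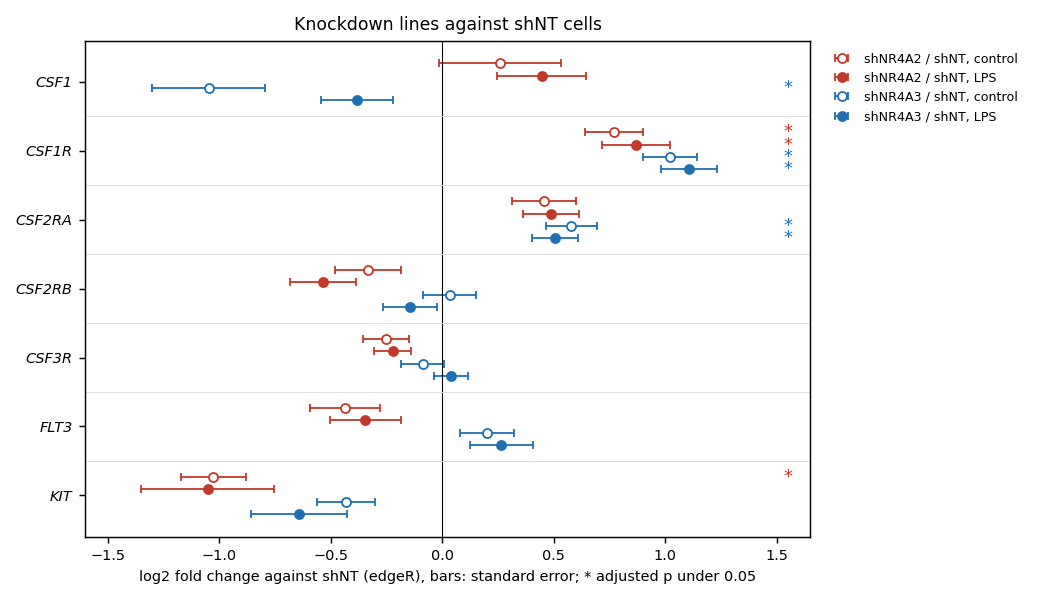
Log2 fold change against shNT cells (horizontal axis, points, with bars for the standard error) of the 7 members tested in every comparison of a knockdown line with shNT, 3 libraries against 3; open points are control cells, filled points LPS, and a star marks an adjusted p under 0.05 in edgeR. CSF1R lies between 0.77 and 1.10 in the 4 comparisons and KIT between -0.43 and -1.05.

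CSF1R (ENSG00000182578, chr5:150053291-150113372, minus strand), the receptor of CSF1 and IL-34, was at 101, 75.9 and 77.7 TPM in shNT control cells. It was at 162, 134 and 138 TPM in shNR4A2 and at 182, 157 and 159.9 TPM in shNR4A3 control cells. With LPS the values were 64.6, 53.3 and 43.8 TPM in shNT, 107, 96.6 and 80.0 TPM in shNR4A2 and 115, 113 and 106 TPM in shNR4A3. All libraries of either knockdown line were above all shNT libraries of the same treatment, and the knockdown lines overlapped each other. The log2 fold change against shNT in edgeR was 0.77 ± 0.13 for shNR4A2 (adjusted p = 0.00495) and 1.02 ± 0.12 for shNR4A3 (adjusted p = 0.000205) in control cells. Under LPS it was 0.87 ± 0.15 for shNR4A2 (adjusted p = 0.0115) and 1.10 ± 0.13 for shNR4A3 (adjusted p = 0.00121) in edgeR. The call for shNR4A2 with LPS was lost without shNT LPS replicate 2 (log2 fold change 0.83, edgeR adjusted p = 0.0548). LPS itself lowered CSF1R in shNT cells by -0.44 ± 0.14 (edgeR adjusted p = 0.0315) and in shNR4A3 cells by -0.36 ± 0.10 (adjusted p = 0.0219), and the value in shNR4A2 cells was -0.35 ± 0.14 (adjusted p = 0.103). With the replicate number as a block the last became -0.35 with an edgeR adjusted p of 0.0116, beside 30.1% of all genes. The call in shNT cells was lost without shNT control replicate 1 (edgeR adjusted p = 0.156), LPS replicate 2 (0.0950) or LPS replicate 3 (0.143), and that in shNR4A3 cells was lost without control replicate 1 (0.0901), LPS replicate 3 (0.103) or with all 18 libraries in 1 fit (0.0706).

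Some of the monocyte markers were higher where CSF1R was. Their summed level was 1152 to 1454 TPM in shNT control libraries, 1968 to 2488 TPM in shNR4A2 and 1945 to 2447 TPM in shNR4A3, with FCER1G the most abundant gene (mean 743 TPM over all libraries). With LPS the sums were 959 to 1213, 1738 to 2192 and 1648 to 1986 TPM. In control cells 5 of the 10 markers were called higher in shNR4A2 and 5 in shNR4A3, and with LPS 4 in each, with none lower, beside 6.45% and 7.23% of all genes called without LPS and 6.96% and 6.45% with it. LYZ, which encodes lysozyme, rose by a log2 value of 1.68 ± 0.14 in shNR4A2 and 2.25 ± 0.14 in shNR4A3 control cells (edgeR adjusted p = 6.2e-05 and 6.7e-07), and CD36, a scavenger receptor, by 1.29 ± 0.24 and 2.41 ± 0.21 (adjusted p = 0.00755 and 1.9e-05). Other markers stayed near 0, such as CTSS in shNR4A2 (-0.06 ± 0.13) and FCGR1A and CD33 in shNR4A3 control cells (-0.01 ± 0.11 and -0.04 ± 0.10, edgeR adjusted p = 0.852, 0.986 and 0.880). With LPS in shNT cells, where CSF1R fell, FCGR1A rose by 0.47 ± 0.08 and CD33 fell by -0.44 ± 0.09 (edgeR adjusted p = 0.000575 and 0.00284), and the other 8 markers were not called. A pair of markers of other cell types were called there too, CD79A of B cells by 1.05 ± 0.36 and VWF of endothelial cells by 1.11 ± 0.34 (edgeR adjusted p = 0.0456 and 0.0276). CD79A was at 0.935, 2.36 and 2.28 TPM without LPS and 3.48, 2.88 and 3.42 TPM with it, and VWF stayed at or below 0.570 TPM. Neither was called with LPS in the knockdown lines. There CD79A gave 1.15 ± 0.39 in shNR4A2 and 0.27 ± 0.52 in shNR4A3 (edgeR adjusted p = 0.060 and 0.739). VWF gave 0.08 ± 0.31 and -0.13 ± 0.44 (edgeR adjusted p = 0.89 and 0.86). The part of the markers in the difference in CSF1R was not tested.

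CSF2RA (ENSG00000198223, chrX:1268800-1310381, plus strand, in the pseudoautosomal region), the chain that binds CSF2, was at 33.4, 29.8 and 27.9 TPM in shNT control cells. It was at 49.8, 38.4 and 36.6 TPM in shNR4A2 and at 46.7, 40.9 and 43.9 TPM in shNR4A3 control cells. LPS libraries had 25.4, 25.03 and 21.3 TPM in shNT, 34.1, 36.5 and 26.2 TPM in shNR4A2 and 34.3, 33.3 and 29.9 TPM in shNR4A3. As for CSF1R, the libraries of either knockdown line lay above those of shNT under the same treatment. The log2 fold change in shNR4A3 was 0.58 ± 0.11 without LPS and 0.51 ± 0.10 with LPS (edgeR adjusted p = 0.00761 and 0.0187). The second call was lost without shNT LPS replicate 2 or 3 or shNR4A3 LPS replicate 1 (edgeR adjusted p = 0.0704 to 0.0743). In shNR4A2 the values were 0.46 ± 0.14 and 0.49 ± 0.13 (edgeR adjusted p = 0.0853 and 0.0507), and both were called with the replicate number as a block (0.00130 and 1.2e-05) and in DESeq2 (0.0466 and 0.0189). CSF2RA was not called with LPS in any line, with log2 fold changes between -0.10 and -0.21.

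CSF2RB (ENSG00000100368, chr22:36913628-36940449, plus strand), the shared signalling chain, did not follow CSF2RA. It was at 31.1, 27.7 and 26.2 TPM in shNT control cells, at 27.6, 19.4 and 20.4 TPM in shNR4A2 and at 29.7, 30.6 and 23.9 TPM in shNR4A3. Under LPS it was at 30.1, 27.3 and 22.8 TPM in shNT, at 19.6, 19.8 and 13.98 TPM in shNR4A2 and at 24.5, 24.9 and 20.3 TPM in shNR4A3. Only the LPS libraries of shNR4A2 were separate from those of shNT, and they were the lower ones. The log2 fold change of shNR4A2 against shNT was -0.33 ± 0.15 without LPS and -0.54 ± 0.15 with LPS (edgeR adjusted p = 0.224 and 0.0632), and with the replicate number as a block -0.34 and -0.54 (adjusted p = 0.0125 and 1.3e-06). With LPS it was also called in DESeq2 (adjusted p = 0.0191) and in edgeR without the filter on low counts (0.00166) and with all 18 libraries in 1 fit (0.0335). It was not called there with RLE factors or with any 1 library left out (edgeR adjusted p up to 0.185). In shNR4A3 the log2 fold change against shNT was 0.03 ± 0.12 and -0.14 ± 0.12 (edgeR adjusted p = 0.916 and 0.513).

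The ratio of CSF2RA to CSF2RB in TPM was higher in each library of the knockdown lines than in any shNT library. It was 1.07 ± 0.00690 (SD, n = 3) in shNT control cells, with all 3 libraries between 1.06 and 1.08, 1.86 ± 0.101 in shNR4A2 and 1.58 ± 0.249 in shNR4A3. With LPS it was 0.897 ± 0.0477, 1.82 ± 0.0679 and 1.40 ± 0.0703. No library of a knockdown line fell below 1.34, and no shNT library exceeded 1.08. On the log2 scale the ratio exceeded that of shNT by 0.79 in shNR4A2 and 0.55 in shNR4A3 control cells, and by 1.02 and 0.65 with LPS. With 3 libraries against 3 that do not overlap, a two-sided exact permutation p is fixed at 0.1, the smallest this design allows, so it is no test of these 4 differences, and they are given as a description. The ratio of CSF1R to CSF1 was 23.6 ± 7.56 in shNT, 37.2 ± 19.4 in shNR4A2 and 107 ± 54.7 in shNR4A3 control cells, and 6.23 ± 2.08, 8.85 ± 4.06 and 17.4 ± 4.34 with LPS. The shNR4A3 control libraries, at 71.1 to 170.3, were above all other libraries.

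**Figure D3:**
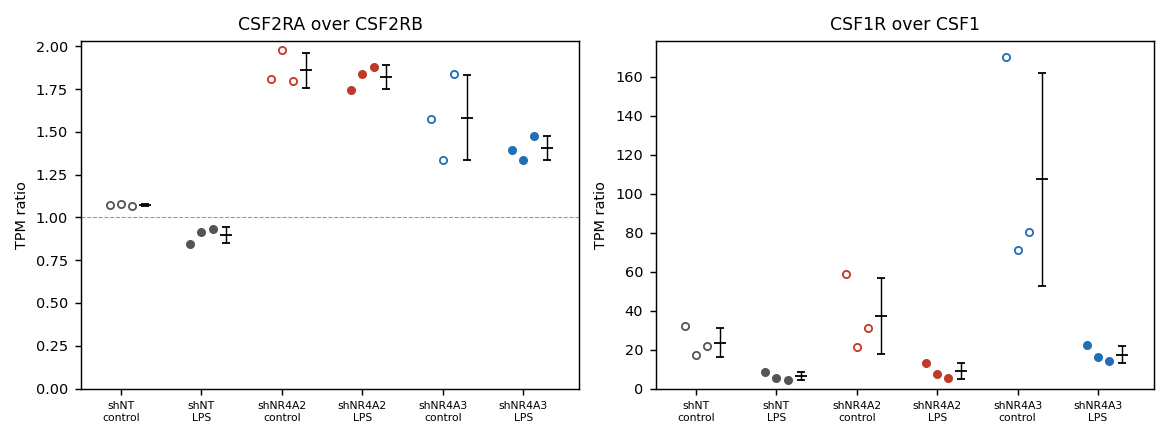
Ratio in TPM (vertical axes, from 0) of CSF2RA to CSF2RB on the left and of CSF1R to CSF1 on the right in the 6 groups, 3 libraries each; open circles are control, filled circles LPS, and the bar is the mean ± SD. The dashed line on the left marks equal levels: shNT libraries lie close to it and the knockdown libraries at 1.34 or above.

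KIT (ENSG00000157404, chr4:54657918-54740715, plus strand), the receptor of stem cell factor, was at 13.6, 12.1 and 13.9 TPM in shNT control cells, at 7.69, 5.35 and 6.33 TPM in shNR4A2 and at 7.70, 11.1 and 9.66 TPM in shNR4A3. With LPS it was at 7.64, 8.78 and 5.29 TPM in shNT, at 3.12, 5.16 and 1.87 TPM in shNR4A2 and at 3.42, 6.05 and 3.97 TPM in shNR4A3. In TPM every LPS library was below every control library of its line, and shNT control cells stood above all other groups. In shNR4A2 the highest LPS library (5.16 TPM) was only just below the lowest control library (5.35 TPM). The median of the genes tested was also lower with LPS there, by a log2 ratio of -0.28 in TPM, so this separation was not counted as a change. LPS lowered KIT by a log2 value of -0.66 ± 0.15 in shNT (edgeR adjusted p = 0.00517) and -0.87 ± 0.19 in shNR4A3 (adjusted p = 0.00568), and the value in shNR4A2 was -0.69 ± 0.28 (adjusted p = 0.109). With the replicate number as a block the shNR4A2 value was -0.73 (edgeR adjusted p = 0.0435) and without the filter on low counts -0.72 (0.0101). It moved to -1.04 without shNR4A2 LPS replicate 2, where it was called (edgeR adjusted p = 0.0140), and to -0.39 without LPS replicate 3 (0.317), while with all 18 libraries in 1 fit the call in shNT was lost (adjusted p = 0.0516). Against shNT, KIT was lower in shNR4A2 control cells by -1.03 ± 0.15 (edgeR adjusted p = 0.00202). With LPS the difference was -1.05 ± 0.30 (edgeR adjusted p = 0.0677), and it was called with the block (3.1e-08), in DESeq2 (0.00836), with all 18 libraries in 1 fit (0.0103) and without shNR4A2 LPS replicate 2 (0.0118). In shNR4A3 it was -0.43 ± 0.13 without LPS (edgeR adjusted p = 0.0663, but 0.0305 with the block, 0.0459 without the filter on low counts and 0.0409 without shNR4A3 control replicate 2) and -0.64 ± 0.22 with LPS (adjusted p = 0.110, but 0.00530 with the block, 0.00265 without the filter and 0.0209 without shNR4A3 LPS replicate 2).

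CSF3R (ENSG00000119535, chr1:36466043-36483278, minus strand), the receptor of CSF3, varied little. It was at 56.0, 59.9 and 58.1 TPM in shNT control cells, at 45.0, 53.0 and 47.8 TPM in shNR4A2 and at 56.3, 55.3 and 46.6 TPM in shNR4A3. With LPS its group means were 49.4 ± 2.28, 40.8 ± 2.79 and 48.9 ± 2.91 TPM (SD, n = 3). The shNR4A2 libraries were below the shNT libraries under both treatments, and those of shNR4A3 overlapped them. CSF3R was not called in any of the 9 pairwise comparisons, and the log2 fold change of shNR4A2 against shNT was -0.25 ± 0.10 without LPS and -0.22 ± 0.08 with LPS (edgeR adjusted p = 0.179 and 0.147), or 0.00837 and 0.0104 with the block. With LPS it was -0.01 ± 0.08 in shNT cells (edgeR adjusted p = 0.937).

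FLT3 (ENSG00000122025, chr13:28003274-28100592, minus strand), the receptor of early progenitors, was at 37.5, 35.3 and 31.9 TPM in shNT control cells, at 31.0, 25.7 and 20.6 TPM in shNR4A2 and at 41.7, 42.4 and 32.5 TPM in shNR4A3. Levels with LPS were 33.7, 39.8 and 27.2 TPM in shNT, 27.5, 29.3 and 19.5 TPM in shNR4A2 and 39.7, 44.8 and 31.6 TPM in shNR4A3. The libraries of shNR4A2 lay below those of shNR4A3 under both treatments, with shNT between them in mean. The log2 fold change of shNR4A2 against shNR4A3 was -0.63 ± 0.16 without LPS and -0.61 ± 0.16 with LPS (edgeR adjusted p = 0.0541 and 0.0991). Both were called with the replicate number as a block (edgeR adjusted p = 0.000294 and 5.1e-05), as they were in DESeq2 (0.00807 and 0.0230). Against shNT the values were -0.44 ± 0.16 and -0.35 ± 0.16 for shNR4A2 and 0.20 ± 0.12 and 0.26 ± 0.14 for shNR4A3, none of them called in edgeR. With the block, FLT3 was called with LPS in shNR4A3 cells (0.22, edgeR adjusted p = 0.0471), beside 39.4% of all genes, and in shNR4A2 against shNT without and with LPS (adjusted p = 0.00218 and 0.000920) and shNR4A3 against shNT with LPS (0.0146).

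The knockdown lines were also compared with each other. CSF1 was the only member called in control cells, 1 of 7 beside 3.08% of all genes, and no member was called with LPS, 0 of 8 beside 2.33%. For CSF1R the log2 fold change of shNR4A2 against shNR4A3 was -0.25 ± 0.11 without LPS and -0.23 ± 0.12 with LPS (edgeR adjusted p = 0.336 and 0.357). For CSF2RA it was -0.12 ± 0.14 and -0.02 ± 0.13 (edgeR adjusted p = 0.772 and 0.968). Under the block 11.6% of all genes were called in control cells, among them CSF1, higher, and CSF1R, CSF2RB, FLT3 and KIT, lower in shNR4A2. With LPS and the block 23.6% of all genes were called, among them CSF1, higher, and CSF1R, CSF2RB, CSF3R and FLT3, lower.

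Whether the response to LPS itself differed between the lines was tested with an interaction term over 12 libraries. No gene was called in edgeR for shNR4A2 against shNT, shNR4A3 against shNT or shNR4A2 against shNR4A3 (0.0% in each), while 365, 824 and 396 genes had an unadjusted p under 0.05 and DESeq2 called 2, 10 and 1. No member was among the latter. The member with the lowest unadjusted p was CSF1 in shNR4A3 against shNT, with a difference in log2 fold change of 0.66 ± 0.31 (edgeR adjusted p = 0.985). For CSF1R the differences from shNT were 0.10 ± 0.22 in shNR4A2 and 0.08 ± 0.19 in shNR4A3, and for KIT they were -0.02 ± 0.34 and -0.22 ± 0.26. In simulated counts for shNR4A2 against shNT, this term found 46% of the genes set to differ 2-fold in response. Differences of the size seen here could thus be missed, and the lines are not shown to respond alike.

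Genes that act downstream of these receptors were counted by role, beside 24.9% of all genes called with LPS in shNT, 19.3% in shNR4A2 and 28.1% in shNR4A3. SOCS3, a feedback inhibitor of cytokine receptors, rose by a log2 value of 5.36 ± 0.14 in shNT cells (edgeR adjusted p = 3.8e-12), by 5.50 in shNR4A2 and by 5.57 in shNR4A3. CISH, the inhibitor induced by STAT5, fell by -2.14 ± 0.19 in shNT (edgeR adjusted p = 1.3e-06), and SOCS1 by -2.00 ± 0.31 (adjusted p = 0.000301). Of the 11 inhibitors 2 rose and 7 fell in shNT cells, with a median log2 fold change of -0.50 against -0.01 for all genes tested. They were 2 and 3 in shNR4A2, or 2 and 8 with the replicate number as a block (30.1% of all genes), and 2 and 5 in shNR4A3, or 2 and 8 (39.4%). SH2B3, an adaptor that restrains KIT and JAK2 signalling, was the other gene that rose.

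Of 15 receptor-proximal kinases, STATs and adaptors, 3 rose, STAT5A and LYN among them, and 1 fell (PIK3R1) with LPS in shNT and in shNR4A2 cells, and in shNR4A3 cells 5 rose and 2 fell. The 4 calls in shNT are close to the share of all genes there (24.9%), and that share was 19.3% in shNR4A2 and 28.1% in shNR4A3. The LYN call in shNT was lost with all 18 libraries in 1 fit (edgeR adjusted p = 0.115), and that in shNR4A2 was lost without control replicate 2 or 3 or LPS replicate 1 or 3 (edgeR adjusted p = 0.112 to 0.138). STAT5A, a transcription factor activated by CSF2 and CSF3 receptors, rose by 1.20 ± 0.14 in shNT, 1.67 ± 0.23 in shNR4A2 and 1.88 ± 0.21 in shNR4A3 cells (edgeR adjusted p = 1.7e-05, 0.000256 and 6.0e-05). PIK3R1, the regulatory subunit of PI3-kinase, fell by -1.34 ± 0.11 in shNT (edgeR adjusted p = 4.2e-07). The median of this list was 0.01 against -0.01 for all genes. Of 7 tested genes known to be induced through the receptors, 3 rose and 2 fell in each line with LPS, beside the same shares of all genes. The kinase genes PIM1 and PIM2 rose by 1.86 ± 0.15 and 2.02 ± 0.16 in shNT (edgeR adjusted p = 7.6e-07 and 6.4e-07), as did the cyclin gene CCND1 by 1.16 ± 0.11 (2.1e-06), while MYC fell by -2.74 ± 0.11 (2.1e-10). ADAM17, the protease that sheds CSF1 and CSF1R, rose by 0.58 ± 0.10 in shNT (edgeR adjusted p = 0.000666). Of 5 shedding genes 2 rose in each line, beside 24.9% of all genes called in shNT, 19.3% in shNR4A2 and 28.1% in shNR4A3.

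The same lists were then compared between lines. Of the 7 tested genes induced through the receptors, 1 was higher and 1 lower in shNR4A2 control cells, and 2 and 0 in shNR4A3. With LPS they were 1 and 0 in shNR4A2 and 2 and 0 in shNR4A3, beside 6.45%, 7.23%, 6.96% and 6.45% of all genes. The replicate block gave 2 and 1 in shNR4A2 control cells (23.6% of all genes), 4 and 1 with LPS (28.1%), and 6 and 0 in shNR4A3 with LPS (21.8%). CCND1 was higher in both knockdown lines, by 1.34 ± 0.13 in shNR4A2 and 0.93 ± 0.12 in shNR4A3 control cells (edgeR adjusted p = 0.000172 and 0.000406) and by 1.29 ± 0.11 and 1.12 ± 0.08 with LPS (0.000336 and 0.000121). Of the other genes induced through the receptors, MYC was lower in shNR4A2 control cells by -0.62 ± 0.09 (edgeR adjusted p = 0.00207) and ID1, an inhibitor of helix-loop-helix factors, was higher in shNR4A3 by 0.71 ± 0.13 without LPS and 0.80 ± 0.15 with LPS (0.00409 and 0.0150), the latter lost without shNT LPS replicate 2 or 3 or shNR4A3 LPS replicate 3 (0.0590 to 0.0723). Of the 11 inhibitors, 2 were higher and 1 lower in shNR4A2 control cells, 1 and 0 in shNR4A3, and with LPS 0 and 1 in shNR4A2 and 1 and 1 in shNR4A3, beside 6.45%, 7.23%, 6.96% and 6.45% of all genes. The higher ones were SH2B3, by 0.51 ± 0.12 in shNR4A2 and 0.37 ± 0.09 in shNR4A3 control cells and 0.50 ± 0.12 in shNR4A3 with LPS (edgeR adjusted p = 0.0282, 0.0269 and 0.0333), and DOK2, an adaptor that restrains kinase signalling, by 0.52 ± 0.13 in shNR4A2 control cells (0.0347). The SH2B3 calls were lost without shNT replicate 2 or 3 of the same treatment or replicate 1 of the knockdown line, in shNR4A3 also without its replicate 3 and, in control cells, its replicate 2 (edgeR adjusted p = 0.0596 to 0.132) or with all 18 libraries in 1 fit (0.130). The DOK2 call was lost without any shNT control library or shNR4A2 control replicate 1 or 2 (0.0558 to 0.151). SOCS2, a STAT5-induced inhibitor, was lower in shNR4A2 by -1.18 ± 0.18 without LPS and -1.49 ± 0.29 with LPS (edgeR adjusted p = 0.00301 and 0.0184) and in shNR4A3 with LPS by -0.88 ± 0.21 (0.0388). STAT3 was lower in shNR4A2 control cells by -0.41 ± 0.09 (edgeR adjusted p = 0.0209), and LYN, a Src-family kinase of myeloid cells, was higher in shNR4A3 control cells by 0.33 ± 0.09 (0.0328). The SOCS2 calls with LPS were lost without any 1 of the shNT LPS libraries or replicate 1 of the knockdown line, and for shNR4A3 also without its replicate 3 (edgeR adjusted p = 0.0538 to 0.138). That of STAT3 was lost without any shNT control library or shNR4A2 control replicate 3 (0.0662 to 0.0970), and that of LYN without replicate 2 or 3 of shNT or 1 or 3 of shNR4A3 (0.0856 to 0.139) and with all 18 libraries in 1 fit (0.297). Of the 15 kinases, STATs and adaptors, 1 was called in shNR4A2 and 2 in shNR4A3 control cells, beside 6.45% and 7.23% of all genes, and none with LPS in either line, beside 6.96% and 6.45%. With the replicate number as a block these were 6 higher and 3 lower in shNR4A2 control cells (23.6% of all genes), 5 and 1 with LPS (28.1%), and 7 and 0 in shNR4A3 with LPS (21.8%). For the 11 inhibitors the block gave 2 higher and 1 lower in shNR4A2 control cells, 3 and 1 with LPS, and 2 and 1 in shNR4A3 with LPS.

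Factors known to act on the receptor genes were counted in the same way. With LPS in shNT cells 3 of 10 rose, SPI1 and ETS2 among them, and 4 fell (CEBPA, GFI1, MYB and RUNX1), beside 24.9% of all genes, with a median of -0.05. CEBPA, a C/EBP factor that acts on CSF3R, fell by -2.12 ± 0.18 (edgeR adjusted p = 7.3e-07) and GFI1, a transcriptional repressor of myeloid progenitors, by -2.32 ± 0.15 (4.9e-08). ETS2 rose by 1.94 ± 0.17 (edgeR adjusted p = 1.1e-06). Against shNT, 2 of the 10 were higher and 1 lower in shNR4A2 control cells, and 3 and 1 in shNR4A3, beside 6.45% and 7.23% of all genes. With LPS they were 1 and 0 in shNR4A2 and 2 and 0 in shNR4A3, beside 6.96% and 6.45%. In shNR4A2 control cells KLF4 was among the higher ones, by 0.87 ± 0.16, and GFI1 was lower by -0.40 ± 0.10 (edgeR adjusted p = 0.00668 and 0.0415). In shNR4A3 control cells KLF4 (0.92 ± 0.15), IRF8 (0.65 ± 0.11) and SPI1 (0.37 ± 0.10) were higher and GFI1 was lower by -0.41 ± 0.10 (edgeR adjusted p = 0.00181, 0.00267, 0.0411 and 0.0214). With LPS IRF8, a monocyte-lineage factor, was higher in shNR4A2 by 0.62 ± 0.10 and in shNR4A3 by 0.79 ± 0.09 (edgeR adjusted p = 0.00885 and 0.00119), and SPI1 was higher in shNR4A3 by 0.55 ± 0.12 (0.0297). Several of these calls were lost when 1 library was left out. That of SPI1 was lost without any 1 of the 6 control libraries (edgeR adjusted p = 0.0570 to 0.164), with all 18 libraries in 1 fit (0.147) and, with LPS, without replicate 3 of either line, shNT replicate 2 or shNR4A3 replicate 1 (0.0947 to 0.122). Those of GFI1 were lost without shNT control replicate 2 or 3, shNR4A2 control replicate 1 or 3 or shNR4A3 control replicate 3 (0.0517 to 0.167), and with all 18 libraries in 1 fit (0.416 in shNR4A2 and 0.469 in shNR4A3). SPI1, which encodes PU.1, was at 606, 575 and 532 TPM in shNT and at 773, 713 and 651 TPM in shNR4A3 control cells. With the replicate number as a block, 4 were higher and 3 lower in shNR4A2 control cells (23.6% of all genes), 4 and 4 in shNR4A2 with LPS (28.1%), and 4 and 3 in shNR4A3 with LPS (21.8%).

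**Figure D4:**
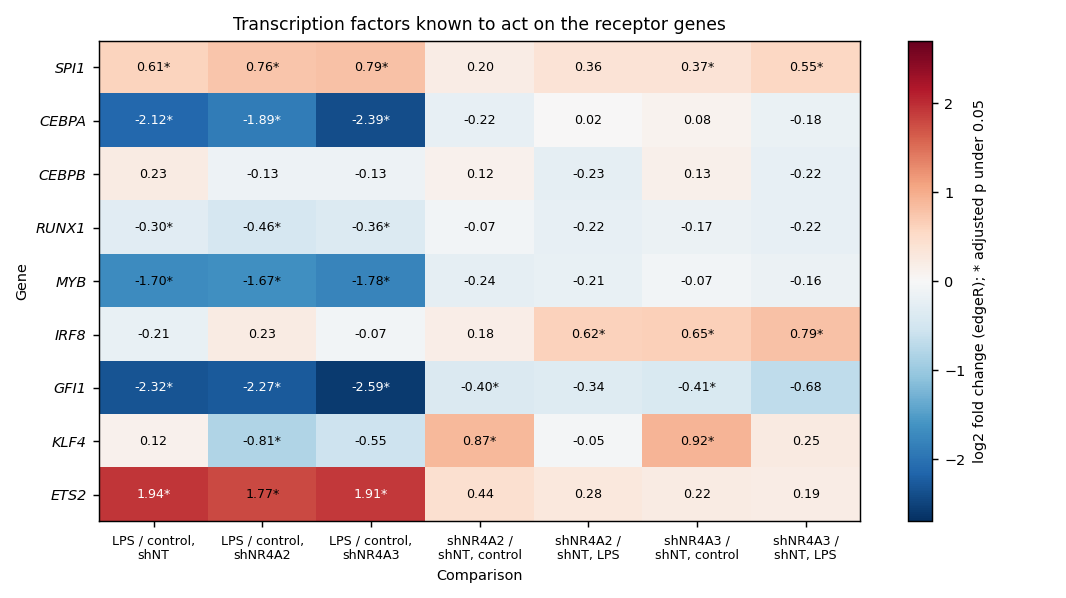
Log2 fold change in edgeR (colour and number) of 9 of the transcription factors known to act on the receptor genes (rows) in the 3 LPS comparisons and the 4 comparisons of a knockdown line with shNT (columns), each of 3 libraries against 3; a star marks an adjusted p under 0.05. CEBPA, GFI1 and MYB are strongly lower and ETS2 strongly higher with LPS, while the differences between lines are below 1.

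Of the 10 factors known to act on the ligand genes, 8 rose with LPS in shNT cells and none fell, beside 24.9% of all genes called (median log2 fold change 0.56 against -0.01 for all genes), 6 rose in shNR4A2 (19.3% of all genes) and 7 in shNR4A3 (28.1%). The NF-κB genes NFKB1 and REL rose by 3.20 ± 0.13 and 2.88 ± 0.10 in shNT (edgeR adjusted p = 2.2e-10 and 6.4e-11), and the AP-1 genes JUN and JUNB by 3.07 ± 0.16 and 2.60 ± 0.10 (5.0e-09 and 2.1e-10). Without LPS, FOS was higher in shNR4A2 by 0.91 ± 0.12 and in shNR4A3 by 0.72 ± 0.11 (edgeR adjusted p = 0.00141 and 0.00171), FOSL1 was higher in shNR4A2 (0.57 ± 0.12, 0.0186), and ETS1 was lower in shNR4A3 (-0.45 ± 0.09, 0.00753). These were 2 of 10 factors in each line, beside 6.45% of all genes in shNR4A2 and 7.23% in shNR4A3, and the FOSL1 call was lost without shNT control replicate 1 or 3 (edgeR adjusted p = 0.0566 and 0.0994). With LPS FOSL1 was higher in shNR4A2 by 0.71 ± 0.11 and JUNB in shNR4A3 by 0.41 ± 0.08 (edgeR adjusted p = 0.00637 and 0.0164), 1 of 10 in each line beside 6.96% and 6.45% of all genes. The JUNB call was lost without replicate 1 or 3 of either LPS group (edgeR adjusted p = 0.0587 to 0.0693). With the block 4 factors were higher and 2 lower in shNR4A2 control cells (23.6% of all genes), 3 and 2 in shNR4A2 with LPS (28.1%), and 5 and 3 in shNR4A3 with LPS (21.8%).

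Patterns across the 18 libraries were compared as Pearson correlations of log2 CPM (counts scaled to library size by TMM, prior count 2) over 16871 genes, as a description, since libraries of a group share their line and treatment. CSF1R was most like MS4A6A (r = 0.975), a myeloid membrane gene, COLGALT1 (0.969) and TMEM243 (0.959). CSF2RA was most like COLGALT1 (r = 0.953) as well, then HK1 (0.9495) and MS4A6A (0.947), and CSF1R and CSF2RA had an r of 0.939 with each other. CSF3 was most like the chemokine genes CXCL1 (r = 0.987) and CXCL2 (0.985) and the kinase gene RIPK2 (0.986). CSF1 was most like ANXA8 (r = 0.966), ATP9A (0.954) and ANKRD28 (0.9496), and KIT most like GMCL1 (0.961), KBTBD11 (0.957) and GRAMD1B (0.953). The closest genes were less alike for FLT3 (ANO6, r = 0.930), CSF2RB (RNF41, 0.903) and CSF3R (AC073107.1, 0.849). FLT3 and CSF2RB had an r of 0.818 with each other.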

How the data were processed

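Polyadenylated RNA of the 18 libraries was sequenced from both ends (2x150 bases). The submitters' processing notes name Trimmomatic 0.36, STAR 2.5.2b and featureCounts of Subread 1.5.2, with GRCh38, and the authors deposited raw counts of reads per Ensembl gene, without normalization, beside the exon length in bases. The strand setting of the counting is not given in the sources used here. Symbols were matched through GENCODE 29 for 56898 of 57500 genes. Groups came from the sample labels. Members and gene lists were chosen with earlier results of these data known, and genes were named from a list by the 4 largest called changes of a comparison.

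TPM was computed from counts and length. A pair of groups entered a fit with its 6 libraries alone, and an interaction with 12, in edgeR 4.0.16 (R 4.3.3): filterByExpr defaults, TMM, quasi-likelihood F test, Benjamini-Hochberg adjustment over all genes tested, call at an adjusted p under 0.05. The fits were tested on simulated counts. The replicate number was taken to pair libraries where the deviations of all same-numbered libraries correlated above 0.1. This held in both knockdown lines with LPS against control and in the comparisons between lines, except shNR4A3 against shNT in control cells (lowest r 0.0767 over all genes tested, but 0.246 over the 5000 most expressed), and it did not hold for LPS in shNT by either (0.0075 and -0.0119). Alternatives were DESeq2 1.42.0, RLE factors, no filter on low counts, the block, all 18 libraries in 1 fit, RPKM for levels, and each library left out. Intervals of count ratios are exact at 95% and floors are 3 counts. No pair of libraries held identical counts. Some genes of the lists are counted but not reported by name here.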

Additional observations from a re-analysis of the deposited data

How the results depend on the processing

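No fold change of a member that was called changed sign under any alternative. Of the 93 member tests, 24 changed sign between values that were not called (edgeR adjusted p of 0.647 or more), 14 of them differences in LPS response and 3 by a setting other than a library left out. Among them were CSF1 in shNR4A2 against shNT control cells (0.26, and -0.08 without shNR4A2 control replicate 2), CSF2RA and CSF2RB with LPS in shNR4A2 (-0.20 to 0.05 and -0.17 to 0.11), CSF3 in shNR4A2 against shNT with LPS (-0.09 to 0.42) and CSF3R with LPS in shNT (-0.04 to 0.04). RLE factors left all 93 member tests on their side of the threshold. DESeq2 added 8 calls among them, all 18 libraries in 1 fit added 6 and lost 3, the unfiltered fit added 13, and the fits without 1 library added 7 and lost 15. The cause was not tested. The replicate block added 26 member calls and lost none, and the numbers of genes called over all genes with the block were 4751 for LPS in shNR4A2, 3733 and 4385 for shNR4A2 against shNT without and with LPS, 2267 and 3401 for shNR4A3 against shNT, 1800 and 3666 for shNR4A2 against shNR4A3, and 8 and 22 for the LPS response of shNR4A2 and shNR4A3 against shNT. For LPS in shNT (5029 with the block) and for these LPS responses against shNT the numbers do not pair the libraries. For shNR4A3 against shNT in control cells they do so only over the 5000 most expressed genes.

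Without the filter the numbers of genes called were 1611 and 1843 (shNR4A2 against shNT without and with LPS), 1839 (shNR4A3 against shNT with LPS), 838 and 1102 (shNR4A2 against shNR4A3) and 29, 138 and 29 in the LPS responses. All 18 libraries in 1 fit gave 4601 for LPS in shNR4A2, 1691 for shNR4A2 against shNT with LPS and 1032 for shNR4A2 against shNR4A3 with LPS. DESeq2 gave 700 for the last, and 2, 10 and 1 for the LPS responses. Leaving out single libraries gave 517 to 1128 and 342 to 1477 for shNR4A2 against shNT without and with LPS, 649 to 975 and 383 to 1693 for shNR4A3 against shNT, 249 to 470 and 94 to 217 for shNR4A2 against shNR4A3, and 0 to 8 and 0 to 44 for the LPS responses of shNR4A2 and shNR4A3 against shNT. TMM-scaled RPKM put levels at 0.253 to 0.308 of their TPM. Genes of a few counts per library, such as CSF2 and CSF3 without LPS, are limited by depth.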

Other observations

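The genes tested on either side of the members called with LPS in shNT cells were compared with them. CSF3 lies 1284 bases from MED24, a Mediator subunit gene, and 17401 bases from PSMD3, a proteasome subunit gene, and neither was called with LPS, with log2 fold changes of -0.03 ± 0.08 and 0.13 ± 0.08 (SE, edgeR adjusted p = 0.813 and 0.274). CSF1R lies 149 bases from HMGXB3 (0.09 ± 0.08, edgeR adjusted p = 0.472), and its span holds the pseudogene RPL7P1 (0.62 ± 0.23, adjusted p = 0.0649). Next to KIT, PDGFRA gave 0.31 ± 0.37 and was not called, while KDR, the VEGF receptor gene 337762 bases away, fell by -1.17 ± 0.32 (edgeR adjusted p = 0.0141). Next to CSF1, AHCYL1 rose by 0.23 ± 0.08 (edgeR adjusted p = 0.0385) and EPS8L3 gave 0.70 ± 0.30 (0.114).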
